A study of Drosophila melanogaster with 3 samples.

Results

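Binding of Nerfin-1 at 8 genes of the neuronal microtubule cytoskeleton was read from chromatin immunoprecipitation and sequencing (ChIP-seq) peak lists of Drosophila melanogaster embryos. The genes were msps, futsch, tau, shot, Khc, unc-104, betaTub60D and alphaTub84B, 8 of 13945 protein-coding genes in the Ensembl annotation. They were chosen by name with peak ranks of these same lists already known, so the counts and ranks below are a description and carry no test. A summit, the highest base of a peak, was given to the gene with the nearest protein-coding transcription start site (TSS). That rule gave the 8 genes 14 of the 7056 summits of the list cut by irreproducible discovery rate (IDR), a measure of how well replicates order the same peaks, and 59 of the 30000 summits of the list called on the pooled replicates. The samples were 3 biological replicates of 1 group: whole embryos of both sexes, 4 to 16 h old, that carry a transgene for Nerfin-1 with green fluorescent protein (GFP) at the C terminus. An antibody to GFP pulled down the chromatin. The labels do not name the promoter of the transgene, and there was no second genotype to set beside it. The control that the peaks were called against was not analysed here. Neurons are only some of the cells in a whole embryo, so a strong summit from many cells and one from strong binding in few cells cannot be told apart.

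Microtubules are hollow polymers of alpha- and beta-tubulin that stiffen axons and dendrites and serve as tracks for transport. Polymerases add tubulin at the growing plus end, microtubule-associated proteins hold the lattice together, spectraplakins link it to actin, and kinesins carry cargo along it. Nerfin-1 is a DNA-binding zinc-finger protein made in young neurons, known in flies for its part in early axon guidance and in keeping neurons differentiated.

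The 8 genes were not alike. One site in msps was among the strongest of the whole series. The best sites of alphaTub84B and shot had pooled ranks of 684 and 1039. Khc, betaTub60D, unc-104 and futsch held 1 site each, at pooled ranks of 3022, 3475, 4356 and 4491. No summit of the IDR list lay nearest to tau. Thus 7 of 8 genes (87.5%) had an IDR summit, where 28.6% of all protein-coding genes did. The choice of genes used these ranks, so nothing is read from that contrast. Of the 14 summits, 6 lay within 500 bp of a protein-coding TSS (42.9%, against 47.0% of all IDR summits), 5 in introns (33.5% of all IDR summits) and 3 between genes (15.3% of all). None lay in a coding exon or in another exon away from a TSS, classes that held 0.468% and 3.74% of all IDR summits. Among the 7056 strongest peaks of single replicates, 14.3 ± 0.577 summits lay nearest to the 8 genes (SD, n = 3). They covered 6.67 ± 0.577 of the 8 genes, while all protein-coding genes with such a summit made up 27.2%, 30.3% and 26.9% in replicates 1, 2 and 3. In the full lists of 30000 peaks, all 8 genes had a summit in the pooled list and in each replicate. There the share of all protein-coding genes was 51.8% for the pooled list and 53.1%, 56.8% and 52.4% for the replicates. The sequence nearer to the TSSs of these genes than to any other was long, at a median of 11615 bp against 4246 bp for all protein-coding genes. They held 9.41 IDR summits per 100 kb of it, against 5.27 over the 6 chromosome arms.

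**Figure D1:**
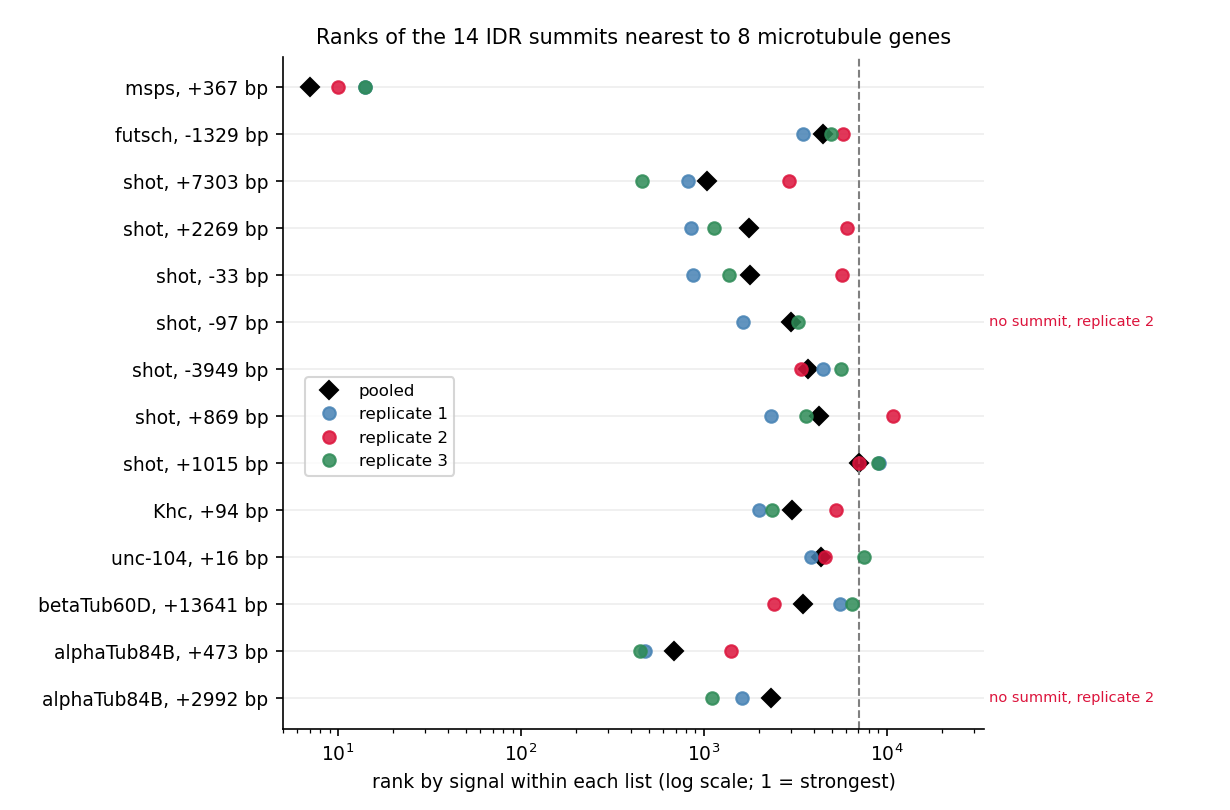
Rank by signal of each of the 14 IDR summits (rows, named by gene and signed distance to the nearest TSS) in the pooled list and in the 3 replicate lists, on a log axis; the dashed line marks rank 7056. The msps summit ranks 7 to 14 in every list, and the remaining 13 rank 448 or lower in each of them.

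The msps gene (FBgn0027948) encodes the fly polymerase of the XMAP215 family, which adds tubulin to plus ends. It spans chr3R:16050801-16060675 on the plus strand of dm6 and has 5 annotated transcripts from 2 TSSs. Its IDR summit stood at 16051168, within a peak from 16050577 to 16051706, 367 bp downstream of the TSS shared by 4 of the transcripts. It ranked 7 in the pooled list and 14, 10 and 14 in replicates 1, 2 and 3. The deposited signal there was 1766, 2117 and 1399 in replicates 1, 2 and 3, so all 3 replicates held the site near the top of their order. The peak was 1130 bp wide, wider than 99.3% of IDR intervals, and the 200 bp around its summit held 55.7% G+C against a median of 39.8% over IDR summits.

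The summit of msps lay in a 376-bp exon of 5′ untranslated sequence, 8 bp before the exon's end. The sequence on either side of that exon is shown because the peak covers both: the 150 bases of the intron that follows (chr3R:16051177-16051326, plus strand) and the 107 bases between the neighbouring gene CG5013 and the TSS (chr3R:16050694-16050800, plus strand). Capitals mark matches, on either strand, to the 15 sequence words listed further on.
msps intron: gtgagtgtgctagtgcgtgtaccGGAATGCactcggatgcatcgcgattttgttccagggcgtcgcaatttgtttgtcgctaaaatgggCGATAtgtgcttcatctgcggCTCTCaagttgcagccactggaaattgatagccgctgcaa
msps upstream: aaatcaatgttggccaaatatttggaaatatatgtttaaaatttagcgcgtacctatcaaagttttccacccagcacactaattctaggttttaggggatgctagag
The intron stretch held a match to GCATTCC on the minus strand, which started 32 bp downstream of the summit. GCATTCC is a form of the word bound by Scalloped, the TEAD-family factor of the Hippo pathway. The other capitals in the intron mark CGATA and GAGAG, farther than 50 bp from the summit. GCATTCC was within 50 bp of 2.59% of all IDR summits. The upstream stretch held 35.5% G+C and the intron stretch 51.3%, and the upstream stretch had none of the 15 words.

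In each replicate a second, weaker msps summit shared the interval of the first. It stood 206, 201 and 218 bp further downstream in replicates 1, 2 and 3, at ranks 6057, 5033 and 7977, with a signal of 86.2, 121 and 55.2. The pooled list held no summit there. CG5013, whose 3′ end lies just upstream on the same strand, had its own IDR summit 198 bp from its TSS at pooled rank 4494. That site ranked 18984 and 7730 in replicates 1 and 2 and had no summit within 100 bp in replicate 3. The IDR summits most like that of msps in their 3 replicate ranks lay nearest to H15, spi and mts. Likeness was the summed absolute difference of log2 rank over the 3 replicates, which came to 2.17, 2.67 and 3.36. H15 encodes a T-box factor, spi a ligand of the EGF receptor and mts the catalytic subunit of protein phosphatase 2A.

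The futsch gene (FBgn0259108) encodes the MAP1B-like protein that binds the lattice in axons, dendrites and motor terminals and is the antigen of the neuronal marker 22C10. It spans chrX:1409069-1453686 on the plus strand and has 3 TSSs, each with 1 transcript. Its only IDR summit was intergenic, at chrX:1407740, 1329 bp upstream of the first of these. It ranked 4491 in the pooled list and 3468, 5739 and 4970 in replicates 1, 2 and 3, with a signal of 125, 108 and 78.0. It was thus among the 7056 strongest peaks of each replicate, highest in replicate 1 and lowest in replicate 2. The 151 bases centred on the summit (chrX:1407665-1407815, plus strand) are printed because this was the strongest site of the gene.
futsch summit: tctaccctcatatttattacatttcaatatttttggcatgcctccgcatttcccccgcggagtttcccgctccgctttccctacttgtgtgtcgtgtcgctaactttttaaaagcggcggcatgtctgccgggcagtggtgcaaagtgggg
This stretch had 51.0% G+C and no match to any of the 15 words. The upstream neighbour Rilpl ends 11731 bp before the gene, and its TSS lay 14686 bp from the summit.

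A further 11 summits of the pooled list lay nearest to futsch, and all of them ranked below the IDR list. Over its 12 pooled summits, 3 lay within 500 bp of a TSS, 4 in introns and 5 between genes. The best at a TSS stood 75 bp downstream of that of futsch-RF, in 5′ untranslated sequence, at pooled rank 11888. Replicate 3 held it at rank 6099 and replicate 1 at rank 14407, while replicate 2 had none within 100 bp. Of the 12 pooled summits, 4 had a summit within 100 bp in all 3 replicate lists, as did 36.4% of all pooled summits, so this count is near the general rate. The next in rank, at 14364, lay in an intron 9488 bp beyond the TSS of futsch-RC. The replicate lists held 12, 8 and 12 futsch summits (mean 10.7 ± 2.31, SD, n = 3). Closest in rank pattern to the strongest futsch summit were those of chb, Jheh1 and chn, at distances of 0.144, 0.163 and 0.191. The chb gene encodes CLASP, a plus-end protein that is also in the wider list below. Its matching summit, 319 bp from a TSS, ranked 3554, 5911 and 5204.

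The tau gene (FBgn0266579) encodes the fly relative of human tau, which binds along the lattice in axons. It spans chr3R:27639886-27656996 on the minus strand, with 14 transcripts from 6 TSSs. No IDR summit was assigned to it, and 5 pooled summits were. The best of them lay in an intron 1495 bp from a TSS, at pooled rank 10517, and ranked 12065, 8181 and 18862 in replicates 1, 2 and 3, all outside the 7056 strongest peaks. In replicate 3 the best tau summit was a different one, 15 bp upstream of a TSS, at rank 9731. The 151 bases around the intronic summit (chr3R:27655225-27655375, written on the minus strand, which is that of the gene) show the strongest site that the rule gives tau.
tau summit: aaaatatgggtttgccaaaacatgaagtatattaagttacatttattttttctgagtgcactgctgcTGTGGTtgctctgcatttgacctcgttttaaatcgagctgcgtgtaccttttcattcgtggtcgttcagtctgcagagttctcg
Its capitals mark a match to ACCACA, the Runx word, on the other strand of the printed stretch.

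The result for tau depended on the rule that ties summits to genes. The body of tau holds the small gene RpS10a, a ribosomal protein gene on the opposite strand, and the rank 4 summit of the pooled list lay there. That summit, at 27652331 in a peak from 27651773 to 27652762, was in an intron of tau, 1577 bp from the nearest tau TSS and 429 bp upstream of the RpS10a TSS. It ranked 3, 106 and 3 in replicates 1, 2 and 3. Under the nearest-TSS rule it counts for RpS10a, and with gene bodies widened by 1000 bp on either side it also counts for tau. By that second rule 6 of the 8 genes had an IDR summit, since futsch and betaTub60D then had none, while 37.4% of all protein-coding genes did. Which gene the site acts on was not tested.

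**Figure D2:**
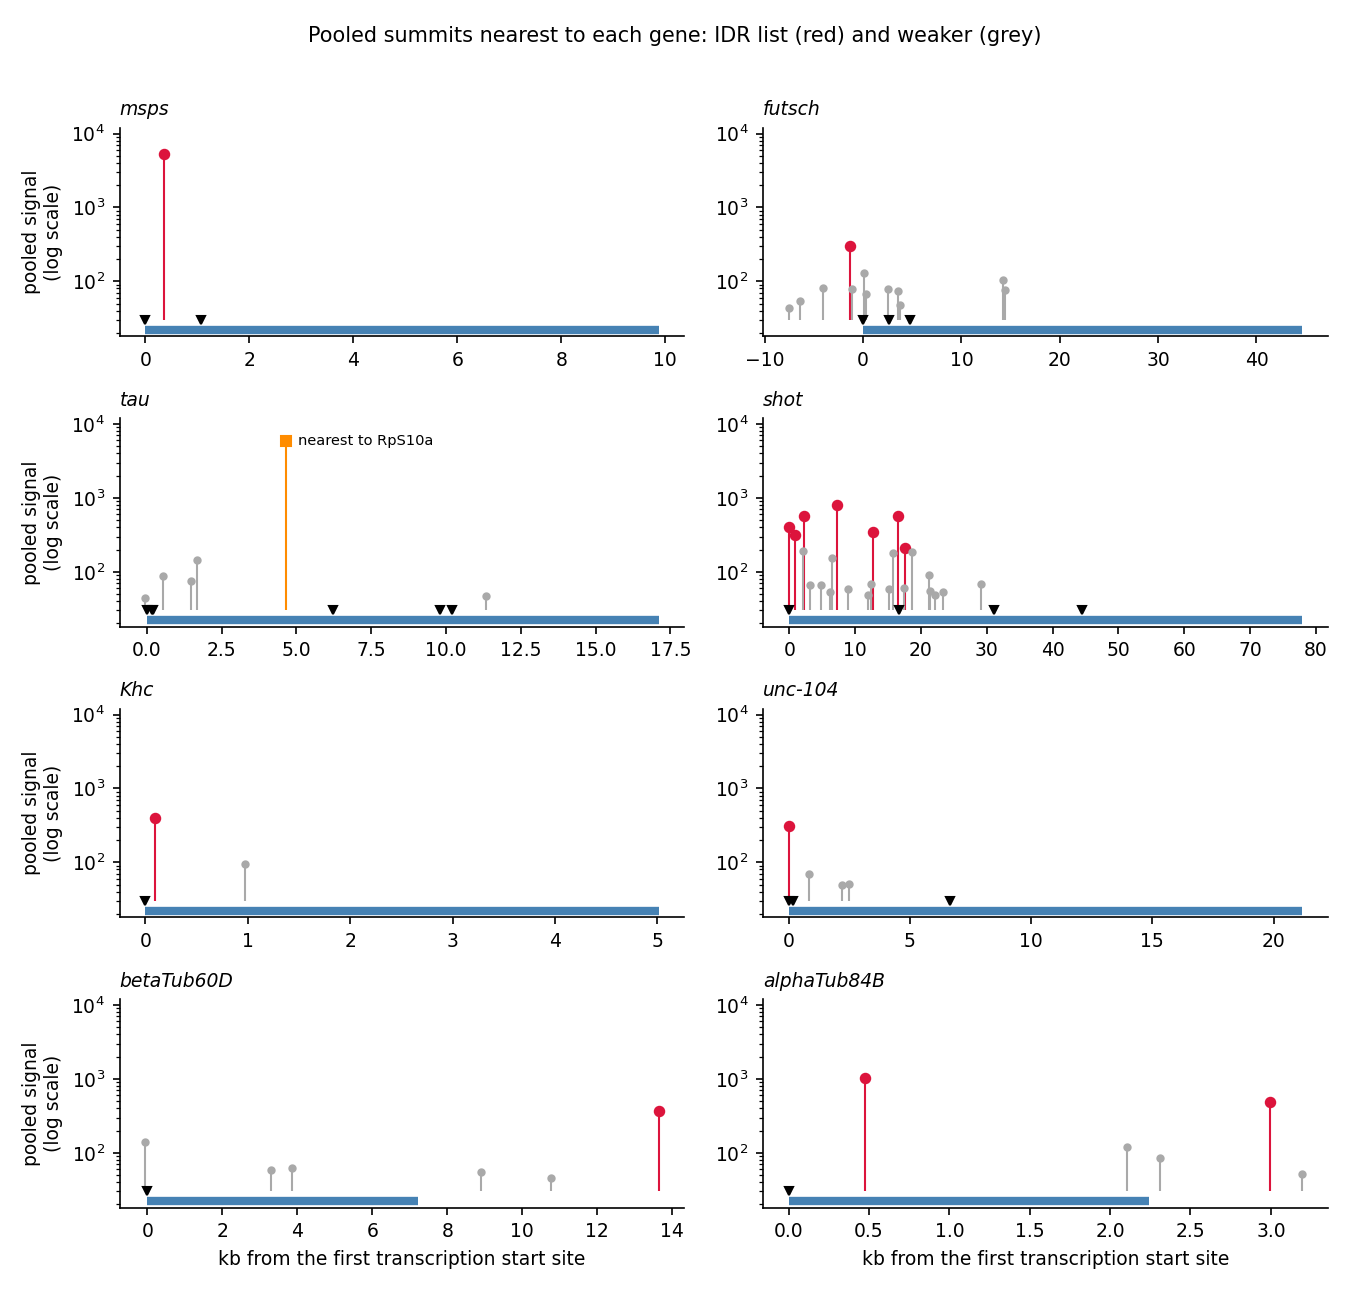
Summits of the pooled list nearest to each gene, by distance in the direction of transcription from the gene's first TSS (kb, x) and deposited pooled signal (log axis, y). Blue bars are gene bodies, black triangles are TSSs, red points are IDR summits and grey points weaker ones; the orange square in the tau panel is the summit nearest to RpS10a. The msps panel has 1 summit, and futsch has 1 red point upstream of its body. The 7 red points of shot lie in the first part of its body or just upstream of it.

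The alphaTub84B gene (FBgn0003884) encodes the main, broadly made alpha-tubulin. It spans chr3R:7086599-7088839 on the plus strand and has 1 transcript. Its stronger IDR summit, at 7087072, lay in the intron 473 bp downstream of the TSS. It ranked 684 in the pooled list and 477, 1405 and 448 in replicates 1, 2 and 3, with a signal of 393, 321 and 326. The other, at 7089591, lay 2992 bp downstream of the TSS, beyond the 3′ end of the gene, at pooled rank 2325. It ranked 1622 and 1103 in replicates 1 and 3 and had no summit within 100 bp in replicate 2, where the nearest was 115 bp away at rank 7351. The pair was thus high in replicates 1 and 3 and lower in replicate 2. Genes with at least 2 IDR summits made up 9.72% of protein-coding genes. Both sites are printed as 151 bases on the plus strand, at chr3R:7086997-7087147 and chr3R:7089516-7089666, because they differ in their words.
alphaTub84B intron: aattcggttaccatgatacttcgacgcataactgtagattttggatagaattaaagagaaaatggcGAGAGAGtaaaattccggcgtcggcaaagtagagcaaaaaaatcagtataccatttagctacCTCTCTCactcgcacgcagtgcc
alphaTub84B 3′ side: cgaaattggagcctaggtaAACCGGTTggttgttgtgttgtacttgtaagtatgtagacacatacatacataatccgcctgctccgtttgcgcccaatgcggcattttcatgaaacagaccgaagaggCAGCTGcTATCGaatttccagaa
The intronic stretch carries runs of GAGAG, the word of GAGA factor (Trl), which start 9 and 7 bp upstream of the summit and recur in capitals on the other strand further down. The stretch beyond the gene carries AACCGGTT, the Grainy head core, and near its other end CAGCTG and, on the other strand, CGATA, all farther than 50 bp from the summit. A match is a description of letters and does not show a bound factor.

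The betaTub60D gene (FBgn0288686) encodes the beta-3 tubulin, which is known from differentiating muscle and some sensory cells. It spans chr2R:24305881-24313099 on the plus strand with 2 transcripts from 1 TSS. Its IDR summit, at chr2R:24319522, was intergenic. It lay beyond the 3′ end of the gene, 13641 bp downstream of the TSS. The nearest TSS of any kind was that of the non-coding gene lncRNA:CR44810, at 5505 bp. The summit ranked 5566, 2422 and 6439 in replicates 1, 2 and 3, so replicate 2 placed it highest. At the gene's own TSS a pooled summit stood 51 bp upstream at rank 10929, and its replicate ranks were 10753, 14050 and 12916. The TSS of betaTub60D therefore held a summit in all 3 replicates, each outside the strongest 7056.

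The shot gene (FBgn0013733) encodes Short stop, the spectraplakin that links microtubules to actin in axons, tendon cells and muscle. It spans chr2R:13864237-13942110 on the minus strand and has 22 transcripts from 4 TSSs. It had 7 IDR summits, a number that 0.624% of protein-coding genes reached or passed. The sequence nearest to the shot TSSs came to 62892 bp, against a median of 4246 bp for all protein-coding genes. The count was not adjusted for it. The 7 lay within 17719 bp, at gaps of 966 to 5355 bp (median 2658). The strongest, in an intron 7303 bp downstream of a TSS, ranked 1039 in the pooled list and 815, 2913 and 458 in replicates 1, 2 and 3. Both upstream TSSs had a summit close by, at 97 bp upstream of the one shared by 8 transcripts (pooled rank 2990) and 33 bp upstream of the one shared by 5 (pooled rank 1780). The TSS at 13910946, shared by 8 other transcripts, and that of shot-RAB had no IDR summit nearest to them, and 1 and 0 pooled summits. Of 24 pooled summits of shot, 22 lay in introns, a class that held 42.2% of all pooled summits. All 3 replicates had a summit within 100 bp of 9 of the 24, which is near the 36.4% of all pooled summits. At the limit of the IDR list, the weakest shot summit inside it ranked 7020 with a pooled signal of 209, and the next 2 outside ranked 7796 and 7986 with 192 and 188.

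Replicate 2 gave several shot sites a lower place than replicates 1 and 3 did. The summit 2269 bp downstream of the TSS ranked 854, 6087 and 1140 in replicates 1, 2 and 3, and that 33 bp upstream ranked 875, 5717 and 1367. The summit 97 bp upstream ranked 1638 and 3265 in replicates 1 and 3, and replicate 2 had no summit closer than 966 bp. Yet the summit 3949 bp from a TSS ranked 4467, 3377 and 5593, so replicate 2 placed that one highest. The weakest, 1015 bp downstream of a TSS, ranked 9040, 7022 and 8976, a narrow range with replicate 2 again highest. The 7 shot summits ranged from 21.4% to 54.2% G+C.

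Both motor genes had an IDR summit within 500 bp of a TSS, where 20.3% of all protein-coding genes did. They were chosen with these ranks known, so nothing is read from that contrast. Khc (FBgn0001308, chr2R:16266960-16271971, minus strand) encodes the heavy chain of kinesin-1, the motor of mitochondria and many other axonal cargoes. Its summit, at 16271877 in 5′ untranslated sequence, lay 94 bp downstream of its only TSS and ranked 3022 in the pooled list. The replicate ranks were 1996, 5274 and 2373. The divergent gene CG33017 starts 143 bp from that TSS, and the summit was 237 bp from its start, so the site lay within 500 bp of both TSSs. Another protein-coding TSS lay within 1000 bp of 2 of the 14 summits (Khc and the intronic one of alphaTub84B, whose divergent neighbour Tailor starts 989 bp away), against 21.8% of all IDR summits. Farther into Khc each replicate held a weaker summit, at 1128, 1204 and 1008 bp and ranks 10281, 7529 and 6165. The unc-104 gene (FBgn0267002, chr2R:16751503-16772671, minus strand) encodes the kinesin-3 that moves synaptic vesicle precursors. Its summit, at 16772655, lay 16 bp downstream of the TSS of unc-104-RB and ranked 4356 in the pooled list. It ranked 3863, 4578 and 7527 in replicates 1, 2 and 3, just outside the strongest 7056 in replicate 3. Sod2, upstream on the same strand, ends 113 bp from the gene. Of the 3 TSSs of unc-104, that at 16766000, shared by 5 of 8 transcripts, had no pooled summit nearest to it. In the replicate lists 20.7 ± 2.31 summits lay nearest to shot, against 2.67 ± 1.15 for unc-104 and 2 in each replicate for Khc (SD, n = 3). The sequence nearest to their TSSs came to 62892 bp for shot, 3641 bp for unc-104 and 3731 bp for Khc. These counts were not adjusted for it, so they do not compare the density of summits.

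Across the 14 summits, 9 (64.3%) met a summit no more than 100 bp away in the top 7056 of each replicate, and 47.3% of all IDR summits did. Within the full replicate lists 12 of 14 had one, and 82.2% of all did. The IDR list was the 7056 strongest rows of the pooled list, so a match in the replicates is not independent of it. Replicate 2 ordered the sites differently. Of the 12 summits with a rank in each replicate, 7 ranked lower in replicate 2 than in both others (42.2% of 5798 such IDR summits) and 4 ranked higher (46.2% of them). The 4 were msps, betaTub60D and 2 intronic sites of shot. Over all IDR summits, those ranked lower in replicate 2 had a median of 46.8% G+C, and those ranked higher in it 32.8%. The 2 shot sites had 24.4% and 21.4% G+C and betaTub60D 38.3%, whereas the msps site, at 55.7%, was the richest in G+C of the 14. The 7 ranked lower in replicate 2 had 37.8% to 54.2% G+C. The part of base composition in these ranks was not tested.

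**Figure D3:**
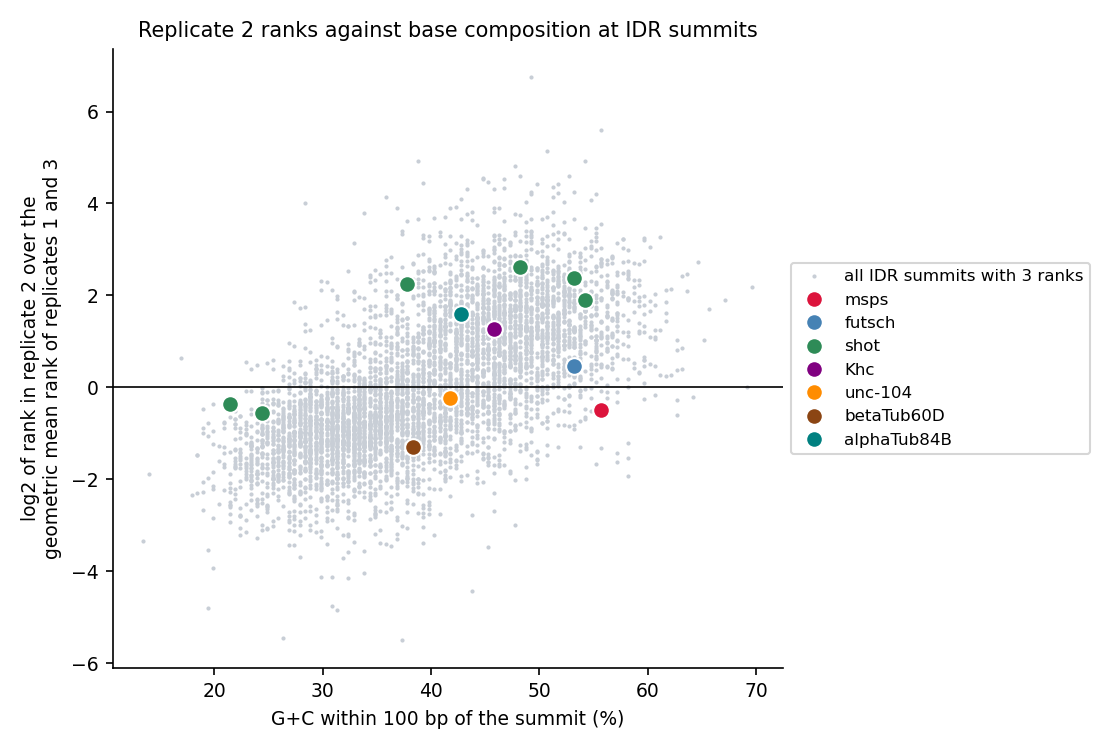
Log2 of the rank in replicate 2 over the geometric mean rank in replicates 1 and 3 (y, higher means weaker in replicate 2) against G+C within 100 bp of the summit (percent, x). Grey points are the 5798 IDR summits with a rank in each replicate and coloured points the 12 among them nearest to the named genes. The msps point lies at 55.7% G+C and -0.49, and the shot points spread from -0.57 to 2.63.

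The 15 words were sought within 50 bp of each summit on both strands. GAGAG was at 4 of 14 summits (28.6%; 13.8% of all IDR summits), namely 3 intronic sites of shot and the intronic site of alphaTub84B. CGATA, the core of the DRE word, was at 1 site, the shot summit 33 bp upstream of a TSS (14.7% of all). GCATTCC was at msps as described. CAGCTG, an E-box of proneural dimers, started 4 bp from the unc-104 summit (4.58% of all), and TATAAA, the TATA box, was near the betaTub60D summit (17.0% of all). The other 10 words were at none of the 14 summits. Of these, TATCGATA (DREF), which contains CGATA, was at 1.54% of all IDR summits, ACATTCC (Scalloped) at 2.55%, CAGGTAG (Zelda) at 0.539% and CACGTG (Myc and Max) at 1.66%. ACCACA (Runx) was at 3.77%, AACCGGTT (Grainy head) at 0.0567%, CGTGGGAA (Su(H)) at 0.198%, GTCACACT (core promoter motif 1) at 1.11%, ATGCAAAT (POU octamer) at 1.62% and GGGGACA (an INSM1-like core) at 0.241%. Their absence says only that these letters were not in the 14 windows.

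Other microtubule genes were listed by role. Of 96 such genes, 43 (44.8%) had an IDR summit, where 28.6% of protein-coding genes did, and 20.3% had one within 500 bp of a TSS. Among the strongest 7056 peaks of single replicates, 39.7 ± 3.51 of the 96 had a summit (SD, n = 3). The median sequence nearest to their TSSs was 5181 bp, against 4246 bp for all genes, and the counts were not adjusted for it. The best summit was at a TSS for 30 of the 43 genes, against 61.8% of the 3986 genes with an IDR summit, and the median best rank was 2365, against 2759 over those 3986 genes. Of the 43, 1 gene, Klp98A, had a summit among the 100 strongest, near the 2.43% of the 3986 genes that did.

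Summits were most frequent at plus-end genes and cargo adaptors. All 3 plus-end genes had one, with CLIP-190 (rank 458) and Eb1 (rank 498), which encodes the end-binding protein, ahead of chb. Cargo adaptors had them at 4 of 5 genes, led by milt, the mitochondrial adaptor of kinesin (rank 142, with 6 summits), and the GTPase gene Miro (rank 3304), whereas syd had none. Dynein and dynactin had them at 8 of 15, led by BicD (rank 101; 98, 139 and 100 in the replicates) and the heavy chain gene Dhc64C (rank 499), with none at Arp1. Partners and regulators of Futsch and Shot had them at 5 of 8, led by the giant ankyrin gene Ank2 (rank 402) and the kinase gene sgg (rank 670), with none at alpha-Spec. Lattice-binding genes had them at 4 of 8, with Jupiter at rank 637, mars at 974 and none at asp. Other kinesins had them at 7 of 18, with Klp98A (rank 92) and Khc-73 (rank 256) first and none at cana. Not every replicate held these best sites. Miro had no summit within 100 bp in replicate 1 and ranked 1954 and 11759 in replicates 2 and 3. The best site of Dhc64C had none in replicate 2 and ranked 725 and 619 in replicates 1 and 3. The other IDR summit of Dhc64C, at pooled rank 593, ranked 887, 405 and 922 in replicates 1, 2 and 3. The other genes given a rank here had a match in each replicate.

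The remaining roles had lower shares. Tubulins beyond the members had summits at 3 of 8, with betaTub56D at rank 268 and gammaTub23C at rank 753, and none at alphaTub67C. Severing and depolymerising proteins had them at 3 of 9, with Klp10A, a kinesin-13, at rank 313, kat-60L1 at 4917 and none at Fign. Nucleation genes had them at 4 of 14, with the augmin gene wac at 3216, Grip91 at 3497 and none at dgt2. Tubulin modification and folding had them at 2 of 8, which were the cofactor gene Tbcd (rank 1571) and the acetyltransferase gene Atat (rank 6668), and HDAC6 had none. Several of these roles hold few genes, so their shares are rough. The best site of Klp10A had no summit within 100 bp in replicate 1 and ranked 362 and 340 in replicates 2 and 3. The other IDR summit of Klp10A, at pooled rank 886, ranked 312, 1243 and 8041 in replicates 1, 2 and 3. For wac there was none in replicate 2, and the ranks in replicates 1 and 3 were 4626 and 3433. The other genes given a rank here had a match in each replicate, though Atat ranked 10531, 5005 and 11082 in replicates 1, 2 and 3.

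**Figure D4:**
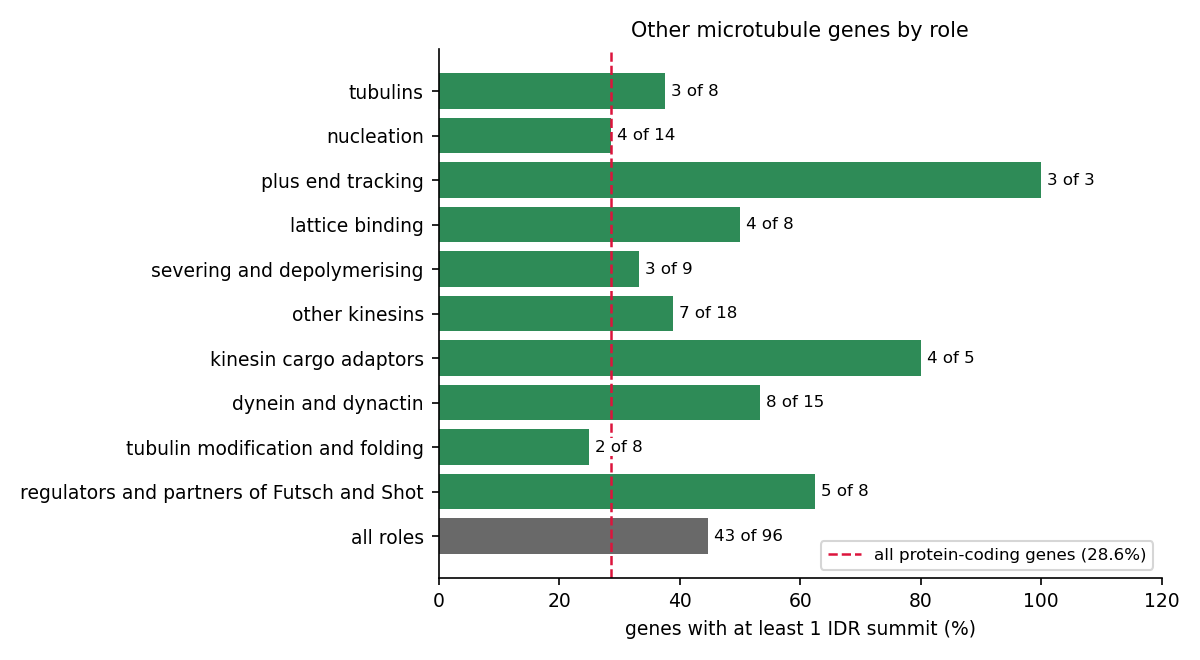
Share of genes with at least 1 IDR summit (percent, x) by role for the 96 other microtubule genes, with the number of genes at each bar; the dashed line is the 28.6% of all protein-coding genes. Plus-end genes (3 of 3) and cargo adaptors (4 of 5) have the longest bars and tubulin modification and folding (2 of 8) the shortest.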

How the data were processed

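ChIP-seq of GFP-tagged Nerfin-1 in 3 replicates of whole embryos was taken as narrowPeak lists on dm6, 1 per replicate, 1 from the pooled replicates and 1 thresholded by IDR. The signal value of each peak is the authors' own, deposited with no stated normalization, and was used to rank peaks within a list; ranks, not signals, were compared across lists. Deposited −log10 q-values stood at their maximum throughout the IDR list and were not used. Peaks were called against a control alignment and the IDR list was made from the replicate and pooled lists, per the file headers. No aligner, peak caller or IDR threshold is named in the sources used here. The lists hold no read counts, so depth and the precision it allows are unknown.

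Summit positions are 1-based. TSSs came from Ensembl release 115 (BDGP6.54), and sequence from RefSeq release 6, in which the 8 genes have the same start and end. Matches between lists were summits within 100 bp. Python 3.11.15 with pandas 2.3.3 was used, and assignment, distance, location and matching were tested on simulated summits. With 1 group and members picked from these lists, no test was made; alternatives are in the closing section. The genes, the lists and the words were chosen with earlier results of these data known. The rule for named genes took the 8 genes, the 2 best-ranked genes of each role and the alphabetically first one without an IDR summit, divergent neighbours with a TSS within 1000 bp, and the 3 likest summits of msps and futsch. RpS10a, CG5013 and other genes beside or inside the members were named after their values were seen. Of 96 listed genes 96 were matched, 5 of them by letter case.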

Additional observations from a re-analysis of the deposited data

How the results depend on the processing

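Of 34 alternative counts, 28 stayed within 1.5 times the value reported. With only the stronger IDR rows, up to the median rank, 9 summits in place of 14 lay nearest to the 8 genes, and the pooled list gave 59 summits and 69 of the 96 other genes in place of 43. A match within 50 bp left 5 of 14 summits in the strongest peaks of all 3 replicates in place of 9. Limited to summits matched in both other replicates, which is a shorter list, leaving out 1 replicate at a time left 6 to 7 of the 8 genes, 9 to 12 of their summits and 28 to 32 of the 96 genes. Matches in both remaining replicates came to 9 to 12 summits. The lowest counts came without replicate 1 (9 summits and 28 genes, each over 1.5 times below 14 and 43). The shares of all IDR summits and of all genes were not worked out for the 50-bp match or with 1 replicate left out. Whether these falls are particular to these genes therefore cannot be stated. The causes were not tested beyond the shorter lists themselves. Within 100 bp of the summit, counts of 7 of the 15 words moved by more than 1.5 times or from 0. CGATA was then at 5 of 14 sites (27.1% of all), and CAGCTG and TATAAA at 3 each (10% and 28.6% of all). CACGTG (Myc and Max) and the Runx word were at 1 site each (3.22% and 8.18% of all). The Grainy head core and core promoter motif 1 were also at 1 each (0.241% and 2.38% of all). Ranking by column 8 was not run, because that column holds 1 value throughout. Depth is unknown, so how far the weak summits rest on few reads cannot be stated. No paired analysis was possible because there is 1 group.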

Other observations

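Beside some pooled summits of these genes, replicate lists held summits more than 100 bp away, which the match did not tie to them. Whether these mark the same sites was not tested. The second msps summit lay 201 to 218 bp downstream of the strongest one in each of the 3 replicates, at ranks 5033 to 7977, and the pooled list had none there. In Khc the pooled summit 969 bp downstream of the TSS had a match within 100 bp in replicate 3 alone (rank 6165), yet replicates 1 and 2 held one 1128 and 1204 bp downstream, at ranks 10281 and 7529. On the 3′ side of alphaTub84B the summit of replicate 2 lay 115 bp from the IDR summit, at rank 7351. The match tied that summit to another pooled one, 3193 bp downstream of the TSS at pooled rank 26081.

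Within 100 bp of a summit, AACCGGTT was at 1 of the 14 sites, the one beyond the 3′ end of alphaTub84B, and at 17 of all 7056 IDR summits (0.241%). The site was noticed after the sequence was seen, and no test was made.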
